A study of Mus musculus with 3 samples.

Results

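The skeletal muscle barcodes of 2 mouse Achilles tendon libraries were chosen by a rule on 6 genes of the fast contractile apparatus. A barcode, the tag of 1 droplet, was a member when Acta1, Ckm, Mylpf, Tnnt3, Myh4 and Tnnc2 together made up at least 1% of its UMIs (unique molecular identifiers, each standing for 1 captured transcript) and at least 4 of the 6 had a UMI. Of 58018 barcodes in the 2 tendon libraries, 121 were members: 114 of 25067 in the library labelled sural nerve neurectomy and 7 of 32951 in the sham library. The dorsal root ganglion library of the series, used only as a tissue without muscle, had 0 of 23566 barcodes, which allows a share of up to 0.0127%. By the labels that library came from 6 mice, 4 weeks after an injection.

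Both tendon libraries came from C57BL/6 mice, with n = 5 per group by the labels, and both groups had been held in dorsiflexion immobilisation for 4 weeks to overstrain the tendon, so neither is a resting tendon. In the neurectomy group the sural nerve, a mainly sensory nerve of the lower leg, had been cut 1 week before the immobilisation; in the sham group the nerve was exposed through the biceps femoris. The labels give neither age nor sex for the mice whose tendons were taken. The neurectomy members held 38 UMIs of Xist and 0 of 4 Y-linked genes, and the 7 sham members, with 10950 UMIs in all, held 0 of both. Whether the pools differed in sex was not tested, and such a difference cannot be told apart from that between libraries. The tendons were digested with collagenases and dispase and run as a single 10x Genomics library per group, so that a difference between the libraries cannot be told apart from a difference between groups and has no replicate check. The labelled tissue matched its markers: 10956 neurectomy and 22936 sham barcodes passed the tenocyte gate (at least 4 of Tnmd, Scx, Thbs4, Fmod, Comp and Col1a1 with a UMI, together at least 1% of UMIs). In the tendon libraries 1001 barcode sequences occurred in both, 2 of them neurectomy members, and no barcode was a member in both. No separate muscle sample is labelled, and how much muscle was taken with each tendon is not given.

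Skeletal muscle fibres are long syncytia with many nuclei, in which actin (Acta1) and myosin filaments slide under control of the troponin and tropomyosin complex. Adult mouse fibres are typed by their myosin heavy chain: Myh7 in slow type I fibres, and Myh2, Myh1 and Myh4 in fast type IIA, IIX and IIB fibres, in the order from more oxidative to more glycolytic. Slow and fast fibres also use different genes for the troponins, the myosin light chains, the calcium pump and calsequestrin, and oxidative fibres hold more mitochondria and more myoglobin (Mb). The calf muscles pull on the Achilles tendon, which itself is made by tenocytes.

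The promoters of Myh4, Myh1 and Acta1 are shown because the first pair encodes the IIB and IIX myosins counted in each library, and Acta1 gave the most UMIs of the 6 rule genes. The windows are the 250 bases before the RefSeq transcription start in GRCm38.p6, 5′ to 3′ on the gene's strand, with matches to the CArG box (the site of serum response factor) and to the MEF2 site in capitals. Myh4 is at chr11:67237562-67237811 on the plus strand, Myh1 at chr11:67199852-67200101 on the plus strand and Acta1 at chr8:123894776-123895025 on the minus strand.
Myh4: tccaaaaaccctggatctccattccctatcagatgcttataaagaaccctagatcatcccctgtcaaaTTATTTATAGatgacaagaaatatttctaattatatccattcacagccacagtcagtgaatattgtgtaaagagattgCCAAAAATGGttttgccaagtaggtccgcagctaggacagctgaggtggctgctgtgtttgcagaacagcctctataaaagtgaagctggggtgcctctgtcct
Myh1: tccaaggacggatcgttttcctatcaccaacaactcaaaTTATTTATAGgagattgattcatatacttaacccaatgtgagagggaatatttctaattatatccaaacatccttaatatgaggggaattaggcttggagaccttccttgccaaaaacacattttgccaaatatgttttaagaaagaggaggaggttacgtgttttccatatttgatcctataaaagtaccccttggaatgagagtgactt
Acta1: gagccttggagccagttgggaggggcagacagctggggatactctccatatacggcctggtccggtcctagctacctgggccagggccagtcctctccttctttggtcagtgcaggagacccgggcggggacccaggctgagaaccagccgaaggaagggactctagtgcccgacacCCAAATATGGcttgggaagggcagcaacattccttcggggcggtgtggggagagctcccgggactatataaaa
Myh4 and Myh1, neighbours in the fast myosin cluster, each held 1 MEF2 match, written with the same letters, and Myh4 and Acta1 each held 1 CArG match. Both patterns were searched on both strands, and no match overlapped another motif. Of 32851 promoter windows of the same length, 1.69% held a MEF2 match and 1.47% a CArG match. E-boxes (CANNTG), the sites of myogenic bHLH factors, occurred 2 times in Myh4, 2 times in Acta1 and 0 times in Myh1, against 66.2% of windows with at least 1. The windows of Ckm, Mylpf and Tnnc2 held neither a CArG nor a MEF2 match; Tnnt3 was not matched in the table. A match describes the letters only, and the missing match in a window says nothing of the factor.

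The members formed a high and a low range of rule-gene share. No member lay between 7.42% and 9.27%, and a division at 9%, chosen after the shares were seen, put 55 neurectomy members and all 7 sham members in an upper range and 59 neurectomy members in a lower range. In the upper range of the neurectomy library the 6 genes took a median of 19.0% of UMIs (lowest 10.4%, highest 23.0%). In the 7 sham members the shares were 19.7%, 18.7%, 15.2%, 14.6%, 13.3%, 9.28% and 9.27%, inside or just under the neurectomy range. The lower range had a median of 1.83% (1.02% to 7.42%). The 3 members nearest the threshold had 1.02%, 1.02% and 1.03%, and the nearest barcodes outside it had 0.998%, 0.996% and 0.995%. A further 60 neurectomy and 6 sham barcodes lay between 0.5% and 1%, and 10 neurectomy barcodes reached 1% with fewer than 4 of the genes. These shares chose the members and are given as a description.

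**Figure D1:**
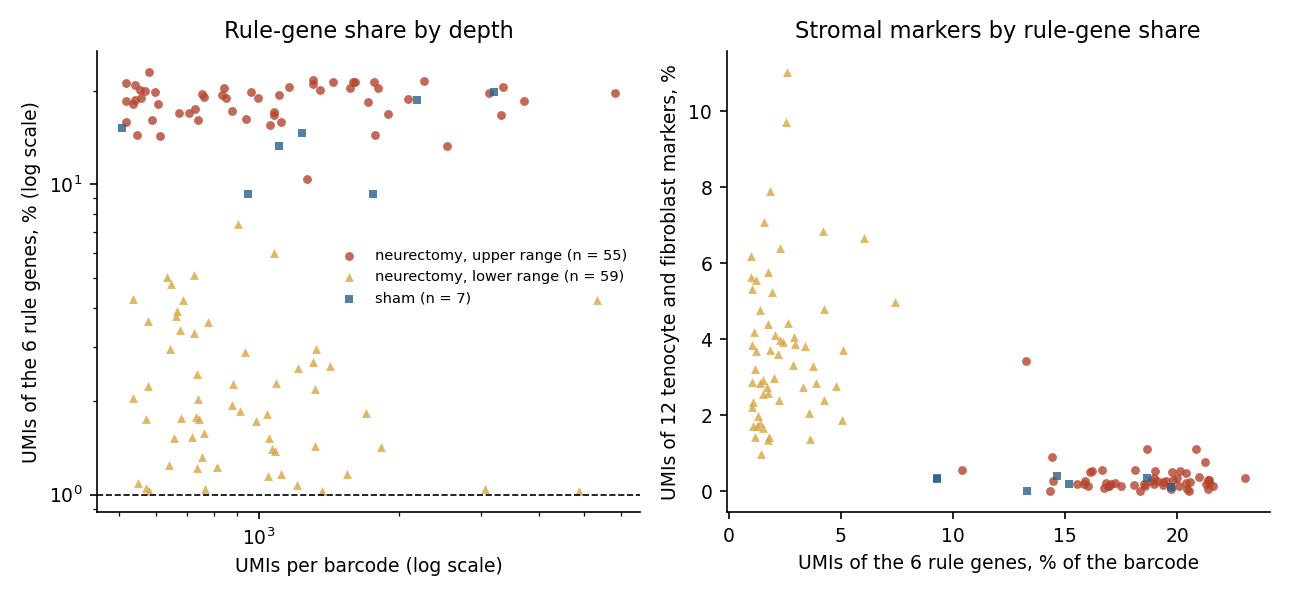
Left, the share of UMIs from the 6 rule genes against the UMIs of each member, both on log scales, with the 1% threshold dashed. Right, the share of UMIs from 12 tenocyte and fibroblast markers against the rule-gene share. The 55 upper-range and 7 sham barcodes sit at 9.27% or more, and the 59 lower-range barcodes at 7.42% or less with stromal markers up to 11.0%.

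The upper range matched the skeletal muscle label on genes outside the rule. The 15 genes with the highest ratio of member to non-member level in the neurectomy library were Acta1, Myl1, Mylpf, Tnnc2, Tnni2, Ckm, Tnnt3, Pvalb, Myh4, Tcap, Actn3, Pgam2, Myoz1, Atp2a1 and Eno3, of which 9 are not rule genes. Myl1, the fast essential light chain, had a level of 29925 CPM (UMIs of the gene per 1000000 UMIs of the set) in the upper range and 20.6 CPM in the other neurectomy barcodes. Pvalb, the calcium buffer parvalbumin of fast fibres, had 10385 against 7.78 CPM, and Actn3, the alpha-actinin of fast Z-discs, had 4467 against 3.84 CPM. Stromal markers were low: the 12 tenocyte and fibroblast markers made a median of 0.240% of UMIs (0 to 3.43%), and 2 of 55 barcodes passed the tenocyte gate. Smooth muscle, Schwann and mast cell lists had 0 UMIs in the upper range, and the cardiac and T cell lists had 0 UMIs in all members. Other lists had a few UMIs in the upper range: 8 macrophage, 5 endothelial, 5 muscle satellite cell, 3 erythroid and 2 lymphatic endothelial.

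The lower range carried tendon transcripts beside the muscle ones. All 59 barcodes had stromal markers, with a median of 3.63% (0.985% to 11.0%), 30 passed the tenocyte gate and 34 passed some gate of another class. Malat1, a nuclear-retained RNA, made up 1.94% of their summed UMIs, against 2.36% in the other neurectomy barcodes and 0.0747% in the upper range. The medians over barcodes were 1.12%, 1.96% and 0.0479%, and the 2 lower-range barcodes with the most Malat1 held 162 and 157 of its 1236 UMIs there. Within the 6 rule genes the mix was close to that of the upper range: Acta1 gave 32.0% of rule-gene UMIs in the lower range (95% interval 29.6% to 34.4%) and 34.3% in the upper (33.5% to 35.1%), and Myh4 gave 3.69% and 3.63%. The lower range is therefore named by its range here, and no cell type is assigned to it. Doublets were not removed, and their part in the lower range was not tested.

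Member barcodes were 21.4 times as frequent in the neurectomy library as in the sham library. The shares were 0.455% of barcodes (exact Clopper-Pearson 95% interval 0.375% to 0.546%) and 0.0212% (0.00854% to 0.0438%), and the interval of the ratio was 10.1 to 54.5. In the upper range alone, with 55 against 7 barcodes, the ratio was 10.3 (4.69 to 26.9). Intervals here and below cover counting error only and not the difference between barcodes, animals or dissections. The membership alternatives, from Acta1 and Ckm alone to a 10% threshold, gave ratios between 10.3 and 33.3.

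Muscle transcripts outside the members differed between the libraries in the same direction. The 6 genes together had 142 CPM in the other neurectomy barcodes, 13.8 in the other sham barcodes and 5.91 in the dorsal root ganglion. A rule-gene UMI was found in 30.3% of other neurectomy barcodes and 4.06% of other sham barcodes. In macrophage-gated barcodes, which should lack these genes, the shares were 31.5% of 267 (median depth 2187 UMIs) and 6.05% of 248 (median 9620), so the share of other neurectomy barcodes with a rule-gene UMI is not read as expression. All 7 gated classes of the neurectomy library held between 66.2 and 129 CPM of rule-gene UMIs, and those of the sham library between 3.51 and 13.1. Members held 57.0% of all 26238 rule-gene UMIs of the neurectomy library and 47.9% of the 3541 of the sham library. Whether such RNA lifted barcodes over the 1% threshold was not tested.

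**Figure D2:**
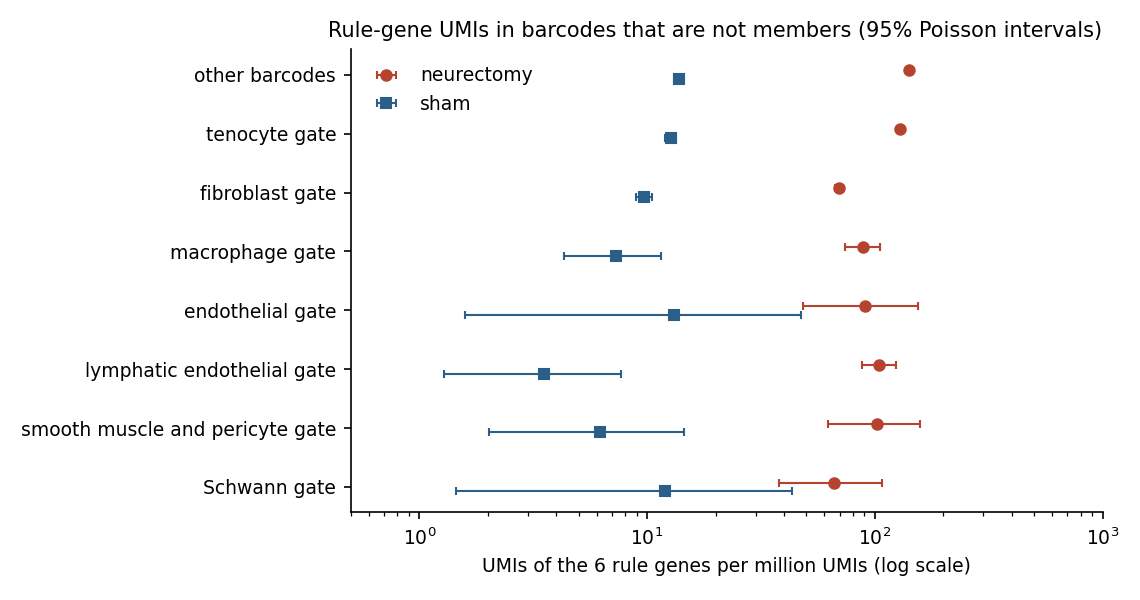
Summed level of the 6 rule genes in CPM (log scale) in barcodes that are not members, for all of them and for each gated class, with 95% Poisson intervals. Every neurectomy value lies at 66.2 or more and every sham value at 13.8 or less.

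The neurectomy members carried almost only the IIB myosin. Of 554 UMIs from the 4 adult myosin heavy chain genes, 544 were Myh4 (98.2%, interval 96.7% to 99.1%), 10 were Myh1 and none were Myh2 or Myh7. The interval of 0 of 554 reaches up to 0.664%. In the upper range 45 of 55 barcodes were assigned to Myh4 (at least 3 such UMIs, and at least 2 in 3 from 1 gene), 1 to Myh1, and 9 had fewer than 3. Myh4 ranged from 0 to 53 UMIs per upper-range barcode, with a median of 6, and from 0 to 8 per lower-range barcode, with a median of 1. Divided by transcript length the Myh4 share was 98.2% as well. Myh4 is a rule gene, so its level is a description; the fast myosin genes are also near-identical in sequence, and the split of reads between Myh4, Myh1 and Myh2 is uncertain where the counting could not tell them apart.

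The 7 sham members were split between IIB and IIX myosin. Of their 30 myosin UMIs, 17 were Myh4 (56.7%, 37.4% to 74.5%), 12 were Myh1 (40.0%, 22.7% to 59.4%), 1 was Myh2 and none were Myh7. The interval of 0 of 30 reaches up to 11.6%. In order of falling rule-gene share, the 7 barcodes had 6, 9, 0, 0, 0, 0 and 2 Myh4 UMIs, and 0, 0, 3, 4, 5, 0 and 0 Myh1 UMIs. No sham barcode held both genes: 2 were assigned to Myh4, 3 to Myh1 and 2 had too few UMIs. The myosin intervals of the 2 libraries did not overlap, but they treat each UMI as independent and leave out the spread between barcodes. The sham Myh4 share rests on 7 barcodes, and as a mean over the sham barcodes with at least 3 myosin UMIs it was 40%. In the 3 sham barcodes with all 6 rule genes, a choice that requires Myh4, it was 100%.

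In the barcodes outside the members, Myh4 made up 92.9% of 608 myosin UMIs in the neurectomy library (90.6% to 94.8%) and 42.7% of 75 in the sham library (31.3% to 54.6%), while Myh1 made up 2.30% and 41.3%. These barcodes are those that missed the rule, in which Myh4 is 1 of 6 genes, and come from the same 2 libraries, so their shares are a description and no separate support.

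**Figure D3:**
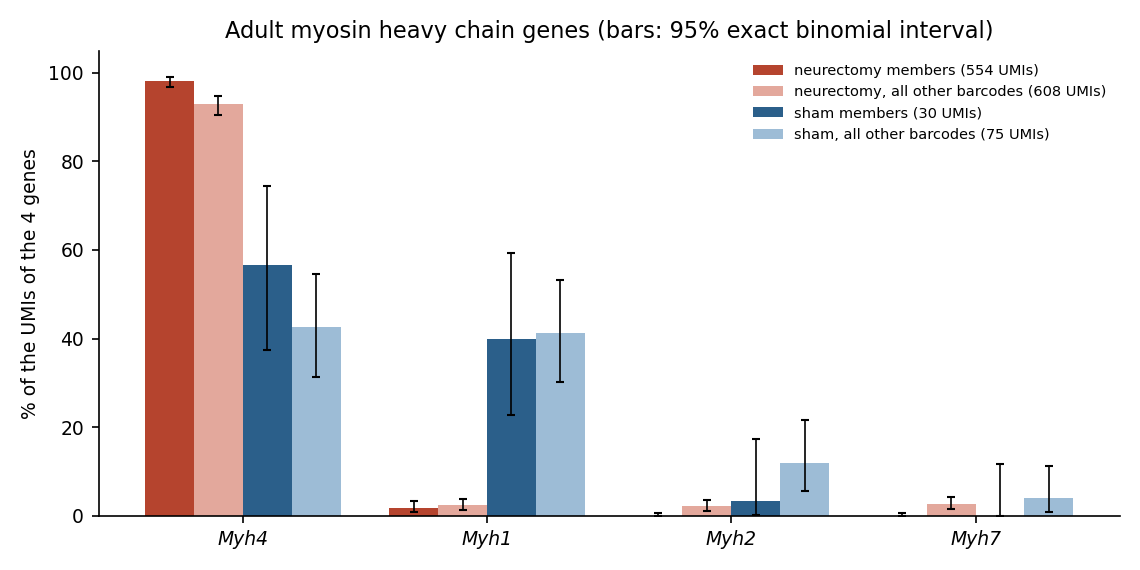
Share of each adult myosin heavy chain gene in the UMIs of the 4 genes, for members and for all other barcodes of each tendon library, with 95% exact binomial intervals. Myh4 stands at 98.2% and 92.9% in the neurectomy library and at 56.7% and 42.7% in the sham library.

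Most Myh1 of the neurectomy members lay in 1 barcode. It had 9 Myh1, 1 Myh4 and 8 Mb UMIs of 1778 in all, with 14.5% from the rule genes, and 1 other neurectomy member had the remaining Myh1 UMI. Its barcode sequence was also present in the sham library, with 686 UMIs and 6 rule-gene UMIs there. Without the 2 neurectomy members whose barcodes were shared, Myh4 made up 543 of 544 myosin UMIs, 99.8% (99.0% to 100%).

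Of the 12 genes on the slow list, 7 were not detected in the members. Myh7, Myl2 and Myl3 (slow myosin chains), Tnnt1, Tnni1 and Tnnc1 (slow troponins) and Casq2 (the cardiac and slow calsequestrin) had 0 UMIs in the 114 neurectomy and the 7 sham members. Their fast partners had 3117 Mylpf, 2410 Myl1, 2385 Tnnt3, 1785 Tnni2 and 2344 Tnnc2 UMIs in the neurectomy members, and 339, 244, 312, 202 and 292 in the sham members. Of these, Myl1 and Tnni2 were not used by the rule. With 0 Tnni1 against 1785 Tnni2 UMIs in the neurectomy members, the fast share of that pair was 100% (99.79% to 100%). Over the 4 pairs without a rule gene (Tnni2 and Tnni1, Myl1 and Myl3, the calcium pumps Atp2a1 and Atp2a2, and the calsequestrins), the fast isoform held 99.7% of 4557 UMIs in the neurectomy members (99.5% to 99.8%) and 100% of 504 in the sham members (99.3% to 100%). The 14 slow UMIs were all Atp2a2, 12 of them in the lower range; Atp2a2 is also the pump of non-muscle cells and stood at 222 CPM in the other neurectomy barcodes. The other 4 genes of the slow list with UMIs in the neurectomy and sham members were Tpm3 (23 and 0 UMIs), a tropomyosin also made by non-muscle cells, Mybpc1 (19 and 7), the slow myosin-binding protein C, Csrp3 (7 and 4) and Myoz2 (3 and 3). The near-complete fast share depends on the pairs taken. Mybpc1 made up 17.4% of the 109 UMIs of Mybpc1 and its fast partner Mybpc2 in the neurectomy members (10.8% to 25.9%) and 26.9% of 26 in the sham members (11.6% to 47.8%). With that pair and Myoz1 and Myoz2 added after the values were seen, the fast share was 99.3% (99.0% to 99.5%) and 98.3% (96.8% to 99.2%).

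**Figure D4:**
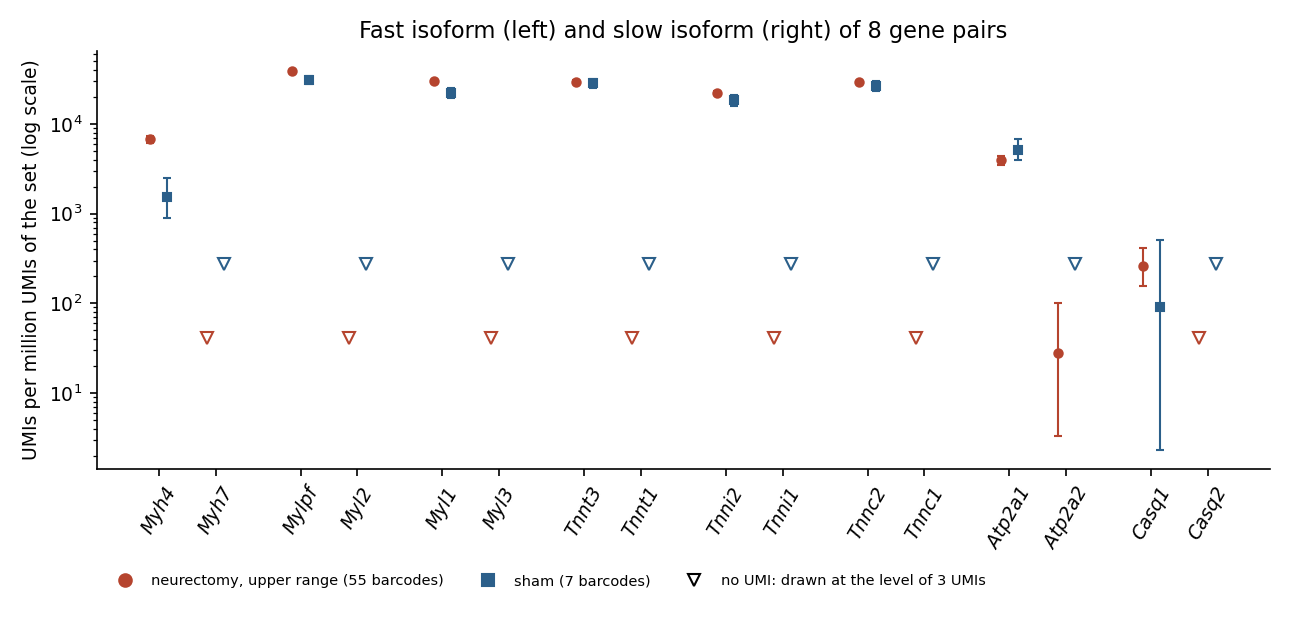
Level in CPM (log scale) of the fast and slow isoform of 8 gene pairs, in the 55 upper-range neurectomy barcodes and the 7 sham barcodes, with 95% Poisson intervals. Open triangles mark genes with no UMI at the level of 3 UMIs, 41.5 CPM for neurectomy and 274 CPM for sham; 1 slow gene, Atp2a2, had UMIs in the neurectomy set.

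Because 4 of the 6 rule genes (Mylpf, Tnnt3, Myh4 and Tnnc2) are fast isoforms, a slow fibre could miss the rule. The analogous rule on slow genes found 0 barcodes in each library. Slow transcripts were nonetheless present at low level among the other barcodes, with 166 neurectomy and 158 sham UMIs of Tnnt1 (2.09 and 1.18 CPM), 94 and 101 of Tnni1, and 16 and 3 of Myh7. Tnni1 thus stood at 1.18 and 0.756 CPM in these barcodes, whereas its fast partner Tnni2 stood at 16.0 and 2.16 and Pvalb at 7.78 and 0.247 CPM. Developmental isoforms were near 0 in the members: Actc1 had 5 UMIs in 5 upper-range barcodes, and Myh3, Myh8, Myl4, Tnnt2 and Chrng had none.

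Mb, the oxygen store of oxidative fibres, was sparse and uneven. Of 114 neurectomy members 7 had an Mb UMI, with 8, 8, 2, 2, 2, 1 and 1 UMIs. Of the 7 sham members 4 had one, with 7, 6, 2 and 1 UMIs. The upper-range barcodes assigned to Myh4 stood at 95.2 CPM in the neurectomy library (6 UMIs in 45 barcodes) and had 0 UMIs in the 2 sham barcodes. Those assigned to Myh1 stood at 4499 CPM (1 barcode) and 2455 CPM (3 barcodes). Of these 3 sham barcodes 1 had no Mb UMI and 1 held 6 of their 7. Upper-range barcodes with fewer than 3 myosin UMIs stood at 1063 CPM in the neurectomy library (8 UMIs, all in 1 of 9 barcodes). In the sham library they stood at 3326 CPM (9 UMIs in 2 barcodes). These levels are descriptions of few barcodes.

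Thin filament, Z-disc and titin genes were abundant in both sets. In the upper range Tpm1, the fast alpha-tropomyosin, stood at 47155 CPM and in the sham members at 34612 CPM; Tcap, the titin cap, at 4951 and 4110 CPM; Des, the muscle intermediate filament, at 2586 and 2922 CPM; and Ttn at 1756 and 1461 CPM. Of the 21 sarcomere scaffold genes 21 had a UMI in the upper range and 18 in the sham members. The excitation-contraction genes were detected less deeply, 13 of 15 in the upper range and 10 of 15 in the sham members, with Trdn (triadin) at 761 and 731 CPM. Ryr1, the calcium release channel, had 14 and 3 UMIs.

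Tpm2, the beta-tropomyosin, was the sarcomere gene with the lowest ratio among the 12 that reached 50 UMIs in the upper-range comparison. It stood at 2461 CPM in the upper range and 8311 CPM in the sham members, a log2 ratio of -1.76 (-2.13 to -1.38). Each of the 7 sham members had Tpm2 UMIs (5 to 32, median 10), against 32 of 55 upper-range barcodes (0 to 28, median 1). The ranges overlapped, and 3 upper-range neurectomy barcodes had 24 or more UMIs, the Myh1 barcode among them with 24. Myh1, under that minimum with 10 and 12 UMIs, stood at 138 CPM in the upper range (66.3 to 254) and 1096 CPM in the sham members (566 to 1914).

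Glycolytic enzymes were abundant in both sets. Aldoa, an aldolase, stood at 14672 and 14247 CPM, Eno3, the muscle enolase, at 6223 and 4749 CPM, and Pgam2, the muscle phosphoglycerate mutase, at 4038 and 3379 CPM. Of 10 glycogen and glycolysis genes that entered the upper-range comparison, 1 was at least 2-fold higher in the neurectomy members (Pgk1, 788 against 274 CPM with 3 sham UMIs, interval of the log2 ratio -0.10 to 3.84) and none lower. Car3, a carbonic anhydrase of muscle, stood at 1673 CPM in the upper range and 3014 CPM in the sham members, a log2 ratio of -0.85 (-1.41 to -0.25).

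Mitochondrial content differed between the ranges. Mitochondrially encoded UMIs made up 1.38% of the upper range (1.29% to 1.47%), with a median of 1.41% over barcodes (0.154% to 6.90%). The lower range had 3.90% (3.75% to 4.05%), above the 3.38% of the other neurectomy barcodes. Each gated class of the neurectomy library had between 2.84% (lymphatic endothelial) and 5.68% (smooth muscle and pericyte), so the upper range lay under all 7. None of the 114 neurectomy members exceeded 15%, a usual upper limit for cells. The share of all 114 members, 2.56%, mixes both ranges and moved to between 1.38% and 3.01% with the choice of members and weighting.

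In the upper range the mitochondrial UMIs did not scale with the depth of the barcode. The 27 shallower barcodes, with a mean of 669 UMIs, had 18.0 ± 11.0 mitochondrial UMIs (SD), and the 28 deeper ones, with a mean of 1937 UMIs, had 18.2 ± 14.2. Rule-gene UMIs went from a mean of 123 to 363 between the same parts, and the mitochondrial share from 2.70% to 0.940%. Spearman's rho with total UMIs was 0.06 for mitochondrial UMIs and 0.96 for rule-gene UMIs over the 55 barcodes, which share 1 library. The barcodes were chosen by their rule-gene share, so the rise of rule-gene UMIs with depth follows from that choice. For Tpm1, which is not a rule gene, rho was 0.91. In the 59 lower-range barcodes rho was 0.50 for mitochondrial and 0.46 for rule-gene UMIs. Malat1 was likewise low at every depth in the upper range: 26 of 55 barcodes had no Malat1 UMI and none had more than 4, with a mean of 1.22 in the shallower and 0.750 in the deeper part. What part of these UMIs is free RNA was not tested.

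**Figure D5:**
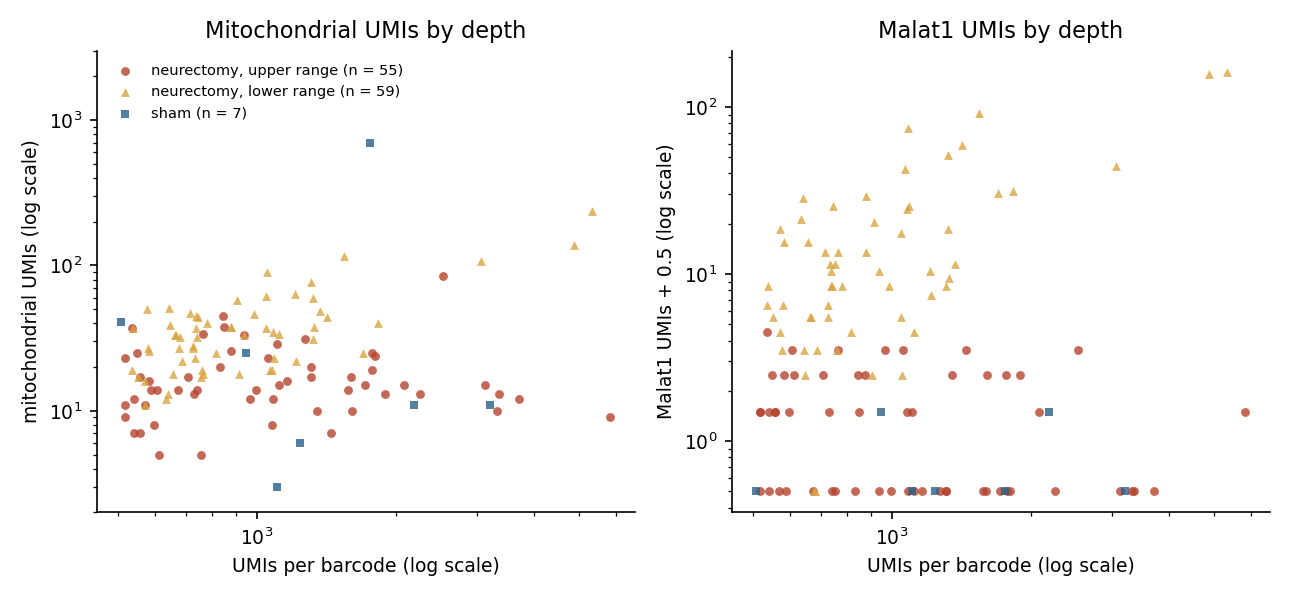
Mitochondrial UMIs (left) and Malat1 UMIs plus 0.5 (right) of each member against its total UMIs, all on log scales. The upper-range barcodes hold 5 to 84 mitochondrial UMIs with no trend over 518 to 5843 total UMIs, 1 sham barcode stands apart at 699, and Malat1 stays at 4 or fewer in the upper range.

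In the sham members the mitochondrial share was set by 1 barcode. The shares, in order of falling rule-gene share, were 0.343%, 0.503%, 8.07%, 0.485%, 0.271%, 2.64% and 39.8%, a median of 0.503%. The pooled share was 7.27%, and 1.06% without the barcode at 39.8%, which had 699 mitochondrial UMIs of 1758. Malat1 was low here too, with 2 UMIs in all and none in 5 of 7 barcodes.

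Nuclear genes for mitochondrial proteins were higher in the upper range than in other barcodes. The 22 matched respiratory chain and Krebs cycle genes summed to 1.58% of UMIs in the upper range, 2.22% in the sham members, 0.529% in the lower range and 0.319% in the other neurectomy barcodes. The muscle isoforms Cox6a2, Cox7a1 and Cox8b and the ADP/ATP carrier Slc25a4 summed to 0.979%, 1.11%, 0.151% and 0.0322%. Cox6a2, the muscle form of a cytochrome oxidase subunit, stood at 2489 and 3470 CPM in the upper range and the sham members and at 2.25 CPM in the other neurectomy barcodes. In the upper range the nuclear lists were thus above, and the mitochondrially encoded genes below, their shares in the other neurectomy barcodes. The 13 fatty acid genes summed to 0.0844% in the upper range and 0.155% in the sham members (61 and 17 UMIs).

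The libraries were compared gene by gene over the members' summed UMIs, over genes that had 50 or more UMIs in all and reached 10 CPM in 1 of the libraries. Over all members 367 genes entered, of which 63 were at least 2-fold higher in the neurectomy library (17.2%) and 58 at least 2-fold lower (15.8%). The 10 highest ratios whose interval lay beyond 2-fold were Malat1, Thbs4, Eef1a1, Actb, Crip1, Dcn, Col1a2, Gsn, Col3a1 and Sparc; Malat1 stood at 9481 against 183 CPM and Dcn, a tendon proteoglycan, at 5115 against 457 CPM. All 10 stood lower in the neurectomy members than in the other neurectomy barcodes, and the sham library has no lower range. Tenocyte markers entered with 5 genes, all 5 at least 2-fold higher, and fibroblast markers with 2, both higher. Their summed level in the neurectomy members was 14544 and 7158 CPM, and in the sham members 1826 and 639 CPM. The sham members had UMIs of 5 of the 6 tenocyte markers, all but Tnmd, and of 2 of the 6 fibroblast markers, Dcn and Col3a1. The part of these markers in the differences was not tested, and the comparison without the lower range is given next.

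Within the upper range 246 genes entered, 15 at least 2-fold higher in the neurectomy members (6.1%) and 12 at least 2-fold lower (4.88%), with a median log2 ratio of -0.03 over all genes. Only Myh4, of the 246, had an interval wholly beyond 2-fold in the neurectomy direction. It stood at 6776 CPM in the neurectomy and 1553 CPM in the sham members, a log2 ratio of 2.13 (1.43 to 2.92). Myh4 is a rule gene and took part in choosing the members, so its ratio is a description. Of the 7 fast isoform genes outside the rule that entered, none differed 2-fold, with a median of 0.25. Of 12 sarcomere genes 2 were at least 2-fold lower, Tpm2 and Smpx, a small muscle protein (log2 ratio -1.10, -2.00 to -0.12), against a median of -0.20. Of the 11 listed nuclear respiratory and Krebs cycle genes none passed 2-fold, with a median of -0.45. Atp5o, a nuclear ATP synthase subunit outside that list and singled out after its value was seen, was at least 2-fold lower in the neurectomy members, with 53 UMIs against 19 and a log2 ratio of -1.24 (-2.02 to -0.40).

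The mitochondrial genes that stood out in that comparison rested on the sham barcode at 39.8%. All 9 that entered were at least 2-fold lower in the neurectomy members, with a median log2 ratio of -2.38, and mt-Co1 at 1853 against 13516 CPM. Without that barcode 8 entered and 0 were 2-fold lower, while mt-Nd4 (log2 ratio 1.59), mt-Nd2 (1.30) and mt-Cytb (1.02) were at least 2-fold higher. The median of the 8 log2 ratios was 0.84, with -0.55 the lowest and 1.59 the highest. Of the 8 intervals 6 held 0, and those of mt-Nd2 (from 0.03) and mt-Atp6 (from 0.12) lay above it. The sham counts behind mt-Nd4, mt-Nd2 and mt-Cytb were 3, 5 and 5 UMIs. The ratios of the rule gene Myh4 (2.05, 1.32 to 2.90) and of Tpm2 (-1.84, -2.23 to -1.44) were little moved, and Atp5o stood at -1.50. Car3 (-1.06) and Atp5e, another ATP synthase subunit (-1.08), were then also at least 2-fold lower in the neurectomy members. The interval of Malat1 (1.78, -0.14 to 4.86) then held 0. Hspb1, a small heat shock protein of muscle, stood at 2420 CPM in the upper range and 1096 CPM in the sham members. Its log2 ratio was 1.14 (0.30 to 2.12), and 1.31 without that barcode.

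The 18 listed genes known to respond when a muscle loses its nerve summed to 173 UMIs in 45 of 55 upper-range barcodes (2392 CPM). In 6 of 7 sham members they summed to 14 UMIs (1279 CPM), and in the other neurectomy barcodes they stood at 2729 CPM. Chrna1, Chrng and Chrnd (acetylcholine receptor subunits) and Myog, a myogenic transcription factor, had 0 UMIs in the members of both libraries. Trim63, a ubiquitin ligase of muscle atrophy, had 40 UMIs in 21 of 55 upper-range barcodes (553 CPM) and 6 in 4 of 7 sham members (548 CPM). Fbxo32, the other atrophy ligase, had 15 and 2 UMIs (207 and 183 CPM). Mt1, a metallothionein, was the 1 gene of the 18 that entered in the upper range, with 996 CPM in the upper range and 274 CPM, from 3 UMIs, in the sham members (log2 ratio 1.86, 0.26 to 4.17). Of its 72 upper-range UMIs 18 lay in 1 barcode, and 30 of 55 barcodes had any. Without the sham barcode at 39.8% mitochondrial UMIs the log2 ratio was 1.61 (0.004 to 3.92). Over all members, with the lower range included, Mt1 and Mt2 entered and both were at least 2-fold higher in the neurectomy library. Mt2 had 69 against 2 UMIs (log2 ratio 1.47, -0.43 to 4.55). Mt1 was not particular to the members. With 10 CPM added to both, its level over all neurectomy members was 1.13 times that in the other neurectomy barcodes. In the lower range it had 60 UMIs (941 CPM). The labels name no cut of a muscle nerve.

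Satellite cells, synaptic nuclei and the muscle side of the tendon junction left few transcripts in the upper range and the sham members. The 6 satellite cell genes had 7 UMIs in the neurectomy members, 4 of them Myod1 in upper-range barcodes, and 0 in the sham members, and no barcode of either library passed the satellite cell gate. Neuromuscular junction genes had 4 UMIs and 1 UMI. The 6 myotendinous junction genes summed to 8 UMIs in the upper range (111 CPM) and 2 in the sham members (183 CPM). In the lower range they had 53 UMIs in 33 barcodes (831 CPM), against 1320 CPM in the other neurectomy barcodes. Col22a1, the collagen of the myotendinous junction, had 1 UMI in the lower range and none in the upper range or the sham members. Among muscle transcription factors Mef2c had 60 upper-range and 9 sham UMIs (830 and 822 CPM), Myf6 16 and 1, and Maf, a factor linked to IIB myosin, 37 UMIs in 21 of 55 upper-range barcodes and 0 in the sham members, where 3 UMIs would be 274 CPM against 512 CPM.

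FGF ligands and receptors, named in the series' title, were sparse in the upper range and the sham members but not in the lower range. Fgf1 had 0 UMIs in the upper range and the sham members and 2 in the lower range. The 12 FGF ligand and receptor genes summed to 5 UMIs in the upper range (69.1 CPM), 50 in the lower range (784 CPM) and 1 in the sham members, against 660 CPM in the other neurectomy barcodes; Fgfr1 gave 23 of the 50.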

How the data were processed

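The deposited matrices hold raw counts of UMIs per gene and barcode, with at least 500 UMIs in every barcode, which per the file headers are the output of Cell Ranger 8.0.1; the submitters' processing notes name both mm10 and GRCm39, so no coordinate of the files was used. Library totals were 79750679 UMIs (neurectomy, median 1212 per barcode), 133570956 (sham, 1065) and 239515477 (dorsal root ganglion, 3422). Barcodes were used as deposited, with no filter on depth, genes or mitochondrial UMIs and no doublet removal. Counts were summed over members and divided by their total (CPM). Shares have exact Clopper-Pearson and ratios exact conditional 95% intervals, with a level of 0 set against 3 counts. The intervals were tested only on counts simulated under the same Poisson and binomial models. Spread between barcodes was not simulated, so their coverage for pooled barcodes was not tested. With 1 library per group there is no test. PCR copies are collapsed by UMI, and intervals cover counting error only. Levels are UMIs captured per gene and were not scaled by length unless stated. Mitochondrial genes are the 13 named mt-. Of 304 list genes 302 were matched, Aldoa by its identifier because its symbol names more than 1 feature. Named genes were the list genes, the 15 genes leading the members, and up to 10 per side whose library ratio lay wholly beyond 2-fold. Members and lists were chosen with earlier results of these data known. Python 3.11.15, numpy 2.4.6, scipy 1.17.1, pandas 2.3.3 and matplotlib 3.10.9 were used. Alternatives covered membership, depth, weighting, thinning, scaling and count minimum.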

Additional observations from a re-analysis of the deposited data

How the results depend on the processing

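Each group had 1 library, so no result has a replicate check, and 7 sham members limit every sham value. No paired analysis was possible because each group has 1 library. Of 135 alternative values 87 moved by less than their counting interval or stayed within 1.5 times the count; the ratio of member shares (10.3 to 33.3) and the neurectomy Myh4 share (97.3% to 98.2%) were among them under each alternative run. The neurectomy members numbered 75 with Acta1 and Ckm alone, 55 from 10% of rule-gene UMIs, 59 from 5%, 49 from 1000 UMIs, 70 with a floor of 500 genes and a ceiling of 15% mitochondrial UMIs, and 55 in the upper range. With all 6 rule genes 3 sham members were left, with a Myh4 share of 100%. The fast share in the neurectomy members (99.7%) was 99.86% with Acta1 and Ckm alone, 99.89% from 2%, 99.93% from 5%, 99.95% from 10%, 99.95% in the upper range and 99.85% without members of another gate. With the Mybpc and Myoz pairs it was 99.28%, and 98.26% in the sham members (100%). The neurectomy mitochondrial share (2.56%) was 1.98% with Acta1 and Ckm alone, 2.18% from 2%, 1.47% from 5%, 1.38% from 10% and in the upper range, 2.06% from 1000 UMIs, 2.41% with the gene and mitochondrial limits, 2.67%, 2.43% and 2.06% with at least 3, 5 and 6 rule genes, 1.998% without members of another gate, 3.01% as a mean over barcodes and 3.01% when thinned to 500 UMIs. The sham share (7.27%) was 0.873% from 10%, 0.645% with the gene and mitochondrial limits, 10.1% with 6 rule genes, 0.503% as a median over barcodes and 1.06% without the barcode of highest share. Genes at least 2-fold higher and lower in the neurectomy members (63 and 58) numbered 137 and 152 from 20 counts, 13 and 11 from 200, 18 and 13 from 5% of rule-gene UMIs, 29 and 25 without members of another gate, 15 and 12 in the upper range, and 17 and 7 there without the sham barcode of highest mitochondrial share. With no filter they numbered 137 and 9300, since a gene with no sham UMI was set at 3 counts, or 274 CPM. The upper range, the setting without 1 sham barcode and the added pairs were chosen after the data were seen. The cause of the other shifts was not tested.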

Other observations

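Among the 62 upper-range barcodes of both libraries, 2 shared a profile that set them apart from the other 60; they were singled out after their values were seen, and no test was made. Both had Myoz2 UMIs (calsarcin of slow and oxidative fibres), 3 in the neurectomy barcode and 3 in the sham barcode, and no other upper-range barcode had any. They held 10 of 11 UMIs of Csrp3, a Z-disc LIM protein of slow and cardiac muscle (6 and 4), and 15 of 38 of Mb (8 and 7). Cryab, a small heat shock protein of muscle, had 42 and 6 UMIs, where the level of the other 60 would give 2.49 for both together. The same 2 barcodes were the only ones of the 62 without a Pvalb UMI, where the level of the rest would give 22.9, and they had no Myh4, Actn3, Mybpc2 or Pygm UMI, against 13.9, 9.71, 2.71 and 2.52 at the level of the rest. A lack of Myh4 was not particular to them: 5 of the 62 barcodes had no Myh4 UMI. The sham barcode held the single Myh2 UMI of all members. Their rule-gene shares, 10.4% and 9.28%, were the lowest of the neurectomy upper range and next to the lowest of the sham members, and they had 2216 UMIs in all, so that each of these genes rests on few UMIs.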
